A study of Mus musculus with 6 samples.

Results

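The immunoglobulin light chain genes described here are the kappa variable genes (Igkv), the kappa constant gene Igkc, the lambda variable genes (Iglv) and the lambda constant genes (Iglc) of the mouse, chosen by name from gene tables that list 47643 genes. The rule found 168 genes: 160 Igkv genes, Igkc, 3 Iglv genes and 4 Iglc genes. RNA came from CD4+ FOXP3-GFP+ cells, which are regulatory T cells that carry a green fluorescent reporter of the transcription factor FOXP3, sorted from the bone marrow of mice injected with Vk*MYC (the myeloma group) and of control mice. There were 3 libraries a group, numbered 3, 4 and 5 in myeloma and 1, 3 and 5 in control, with total expected counts from 10240620 to 13314631. Both groups carry the reporter. The strain, the age, the number of cells injected, the Vk*MYC clone and any treatment of the controls are not named by the labels. The series title asks about the interferon receptor subunit IFNAR1 and regulatory T cells in multiple myeloma, the cancer of antibody-secreting plasma cells. Nothing in the labels says whether libraries of a group came from separate preparations, so the p-values speak only of the spread among these libraries, which may be technical. Values are listed in the order of replicates 3, 4 and 5 for myeloma and 1, 3 and 5 for control unless a replicate is named.

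An antibody is built from paired heavy and light chains, and each light chain is either kappa or lambda. In a developing B cell the recombinase joins 1 variable segment to a joining segment, which is spliced to the constant part, so all descendants of that cell transcribe the same variable segment. A normal B cell population therefore uses many segments, while the cells of a plasma cell clone share theirs. Mouse light chains are mostly kappa, from a large locus on chromosome 6, while the lambda locus on chromosome 16 is small. T cells rearrange other receptor loci and are not known as makers of light chains. In the Vk*MYC mouse the transgene places MYC under kappa light chain regulatory elements, and its plasma cell tumours can be passed on by injection.

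In the sorted libraries from myeloma-bearing marrow, light chain RNA was more abundant, mostly kappa, and dominated by 1 variable segment, Igkv1-110. That segment made up 63.2%, 89.6% and 92.01% of all variable segment counts in myeloma, and between 1.73% and 11.0% in controls. The light chain genes together took 0.0152%, 0.0636% and 0.128% of all counts in the 3 myeloma libraries and 0.00433% to 0.0125% in controls. Most of each library was thus other RNA, and Foxp3 stood at 1020 ± 42.0 CPM (counts scaled to library size; SD, n = 3) in myeloma and 1134 ± 130 CPM (n = 3) in controls.

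The last 300 coding bases of the leading germline segments are shown first, since how alike they are bears on how reads can be divided among them. They come from GENCODE release M21 transcripts on GRCm38 and leave out the start of the leader and all untranslated parts. Igkv1-110 (chr6:68270485-68271267, plus strand) led in all 3 myeloma libraries. Igkv1-117 (chr6:68121046-68121827, plus strand) ranked next in myeloma replicate 3, and Igkv1-88 (chr6:68862265-68863031, minus strand) ranked next in myeloma replicate 5. Capitals in those 2 lines mark the bases that differ from, or have no partner in, Igkv1-110. Iglv1 (chr16:19085017-19085500, minus strand) led in control replicates 3 and 5 and is given without capitals.
Igkv1-110: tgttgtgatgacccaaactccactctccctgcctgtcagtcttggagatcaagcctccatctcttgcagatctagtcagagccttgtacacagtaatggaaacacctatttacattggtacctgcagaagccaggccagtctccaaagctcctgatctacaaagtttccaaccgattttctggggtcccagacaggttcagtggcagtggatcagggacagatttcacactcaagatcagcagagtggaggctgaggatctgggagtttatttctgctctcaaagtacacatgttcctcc
Igkv1-117: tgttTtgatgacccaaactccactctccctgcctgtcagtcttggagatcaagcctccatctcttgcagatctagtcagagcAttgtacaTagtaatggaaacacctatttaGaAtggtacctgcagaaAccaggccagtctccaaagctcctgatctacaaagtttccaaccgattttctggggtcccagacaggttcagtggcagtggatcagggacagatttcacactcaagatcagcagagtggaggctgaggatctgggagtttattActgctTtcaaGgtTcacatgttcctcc
Igkv1-88: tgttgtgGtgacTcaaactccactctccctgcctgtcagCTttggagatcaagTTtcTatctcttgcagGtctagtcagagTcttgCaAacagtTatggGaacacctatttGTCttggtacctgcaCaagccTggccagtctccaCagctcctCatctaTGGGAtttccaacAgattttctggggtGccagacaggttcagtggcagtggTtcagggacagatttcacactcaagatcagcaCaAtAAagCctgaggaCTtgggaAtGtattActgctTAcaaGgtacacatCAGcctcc
Iglv1: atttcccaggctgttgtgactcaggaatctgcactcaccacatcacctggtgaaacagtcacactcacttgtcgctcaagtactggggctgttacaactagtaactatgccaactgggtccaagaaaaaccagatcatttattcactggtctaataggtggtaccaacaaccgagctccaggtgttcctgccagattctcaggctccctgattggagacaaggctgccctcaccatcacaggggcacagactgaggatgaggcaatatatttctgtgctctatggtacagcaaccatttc

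Igkv1-117 is identical to Igkv1-110 at 97.2% of 359 aligned bases, with 10 differing bases and a longest shared run of 142 bases. Among the Igkv genes with a coding sequence it was the closest to Igkv1-110, followed by Igkv1-122 at 94.7%. Igkv1-88 is identical at 85.5%, with a longest shared run of 31 bases. RSEM, the tool that made the tables, shares out reads that match more than 1 gene by a model, so the split between Igkv1-110, Igkv1-117 and Igkv1-122 is uncertain. The tables hold counts per annotated gene and no read sequence, so mutations within a rearranged segment could not be examined.

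Of the 168 genes, 80 were at 0 in all 6 libraries and 88 had a count in at least 1. Only 8 passed the filter on low counts and were tested: Igkc, Igkv1-110, Igkv1-117, Igkv3-2, Iglc1, Iglc2, Iglc3 and Iglv1. A gene low in controls can pass that filter through the myeloma libraries alone, so the tested genes are not a fair sample of the 168. In edgeR's quasi-likelihood test, adjusted over 13235 genes by the Benjamini-Hochberg method, 2 of the 8 were called higher, Igkc and Igkv1-110, against 6.33% of all genes tested. None was called lower at this filter, against 4.69% of all genes tested. At an unadjusted p under 0.05 the test gave 3 genes higher and 1 lower, and neither DESeq2 nor limma-voom called a gene lower. The 3 myeloma values lay above the 3 control values for the same 2 genes, against 17.3% of all genes tested, and below them for 0, against 16%.

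Igkc (ENSMUSG00000076609.2, chr6:70726435-70726966, plus strand) encodes the constant part shared by every kappa chain. Its level was 96.0, 408 and 919 CPM in myeloma against 29.7, 49.7 and 61.7 CPM in control. The groups did not overlap, but myeloma replicate 3 was much nearer to the controls than replicate 5 was. The fitted change was 10.1-fold (3.33 on the log2 scale, SE 0.68), with an adjusted p of 0.0175 in edgeR. The call was lost with robust dispersion (adjusted p = 0.114). It was also lost without myeloma replicate 4 (0.0569) or control replicate 1 (0.0513), 3 (0.0749) or 5 (0.0565), while the log2 fold change lay between 2.41 and 3.80 whichever library was left out.

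Igkv1-110 (ENSMUSG00000093861.2), one of 13 genes of the Igkv1 subgroup in the tables, had the largest fitted change of the 8 genes. It stood at 33.9, 201 and 388 CPM in myeloma. In control it stood at 1.014, 0.859 and 0.581 CPM, from expected counts of 13.1, 10.03 and 7.94. Every myeloma library was far above every control, and the myeloma libraries differed among themselves as they did for Igkc. The log2 fold change was 7.98 (SE 0.9997), with an adjusted p of 0.00238 in edgeR, a 252-fold difference that rests on control counts this low. The call was made whichever library was left out, with log2 fold changes from 7.15 to 8.47 and adjusted p from 9.06e-05 to 0.0183. With limma-voom the log2 fold change was 7.37 and the call was lost (adjusted p = 0.257).

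**Figure D1:**
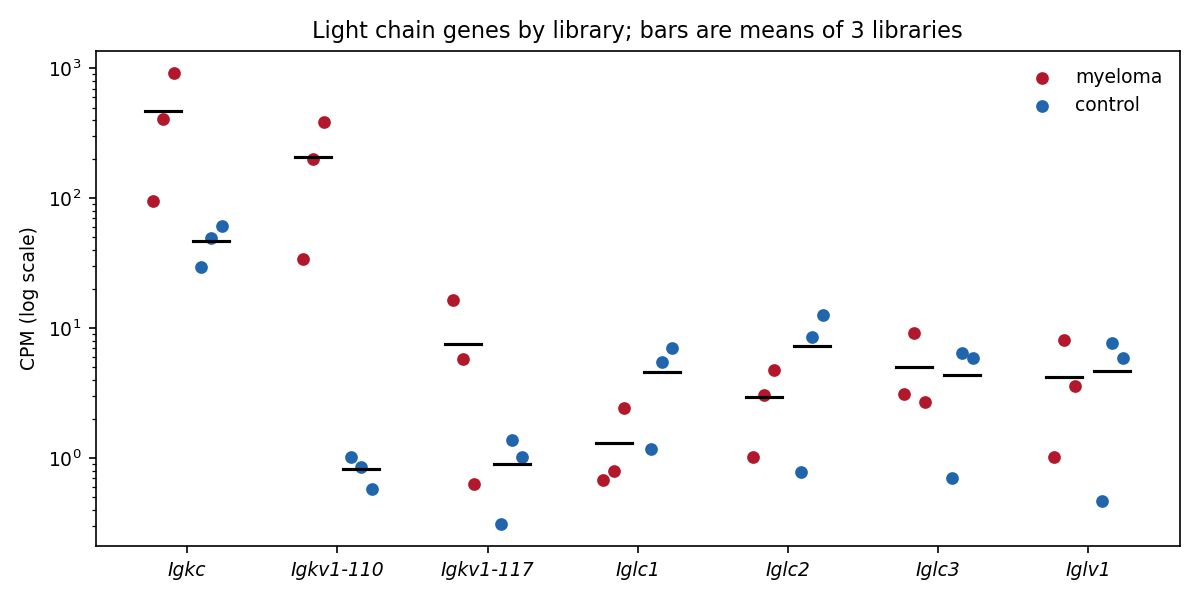
Level in CPM (log scale) of 7 light chain genes in each of the 3 myeloma (red) and 3 control (blue) libraries, with points in replicate order and black bars at the group means. Igkc and Igkv1-110 are separated between the groups, while the other 5 genes overlap.

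The other segments that stood out in myeloma did so in 1 or 2 libraries each. Igkv1-117 (ENSMUSG00000094335.2) was at 16.4, 5.76 and 0.625 CPM in myeloma against 0.312, 1.37 and 1.02 CPM in control. It was high in replicates 3 and 4, and replicate 5 fell within the controls. Its log2 fold change of 3.07 (SE 0.98) did not pass edgeR's test (adjusted p = 0.0774), and it passed without myeloma replicate 5 (3.61, adjusted p = 0.00971). The order of the myeloma libraries was the reverse of that for Igkv1-110. The expected count ratio of Igkv1-117 to Igkv1-110 was 0.485, 0.0287 and 0.00161 in the 3 myeloma libraries, a spread within 1 pair of near-identical genes.

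Igkv1-88 (ENSMUSG00000076535.1) had 0, 3 and 187 counts in myeloma and 0 in every control. A count of 0 allows up to 0.254 CPM in myeloma replicate 3 and up to 0.234, 0.258 and 0.218 CPM in control replicates 1, 3 and 5, against 16.7 CPM in myeloma replicate 5. Igkv8-21 was the third segment of myeloma replicate 3, with 13 counts, and had 2 counts in control replicate 1 and none in the other 4 libraries. Neither gene was tested, and each value is that of 1 library.

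The share of each segment among all Igkv and Iglv counts of a library describes the make-up independently of how much light chain RNA the library held. Intervals are 95% Wilson intervals and cover counting error only. Igkv1-110 made up 63.2% (59.4% to 66.9%) of 634 variable counts, 89.6% (88.3% to 90.8%) of 2262 and 92.01% (91.2% to 92.8%) of 4719 in the myeloma libraries. In controls it made up 11.0% (6.50% to 17.8%) of 119 counts, 3.04% (1.65% to 5.49%) of 330 and 1.73% (0.886% to 3.401%) of 459. It was the third most frequent segment of control replicate 1 and the sixth and the 19th of the others. Shares from TPM, which is scaled for length, were 63.1%, 88.4% and 90.5% in myeloma and 1.49% to 9.62% in controls.

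Myeloma replicate 3 differed from the other myeloma libraries in its remaining segments. Igkv1-117 made up 30.6% (27.1% to 34.3%) of its variable counts, against 2.57% (1.99% to 3.300%) in replicate 4. The share was 0.149% (0.0719% to 0.306%) in replicate 5. Control values for Igkv1-117 were between 3.06% and 4.82%. Igkv1-88 made up 3.96% (3.44% to 4.56%) in myeloma replicate 5. Summed over the whole Igkv1 subgroup, which does not depend on how reads were split within it, the shares were 94.3%, 92.5% and 96.3% in myeloma. They were 16.8%, 13.9% and 7.63% in control. The 3 myeloma libraries were thus closer to each other by subgroup than by segment.

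**Figure D2:**
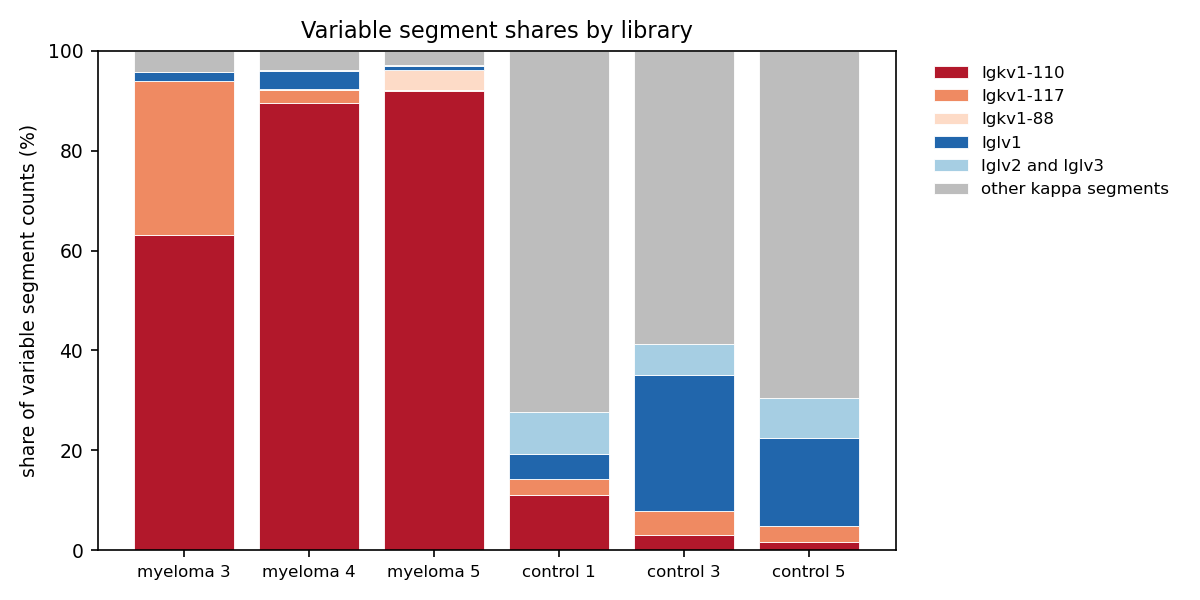
Share of all variable segment counts (%) in each library, stacked by segment. Igkv1-110 fills 63.2% to 92.01% of the myeloma bars and 1.73% to 11.0% of the control bars, and Igkv1-117 fills 30.6% of myeloma replicate 3 and at most 4.82% of any other library.

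No segment dominated the controls, and the leading one differed between libraries. In control replicate 1 it was Igkv3-2, at 24.4% (17.5% to 32.8%), followed by Igkv6-23 at 14.3%. Iglv1 led in control replicates 3 and 5, at 27.2% (22.7% to 32.3%) and 17.6% (14.4% to 21.4%). The leading kappa segments there were Igkv1-135 at 5.12% in replicate 3 and Igkv6-15 at 9.59% in replicate 5. Igkv3-2, the only one of these kappa segments tested, was at 0.254, 1.29 and 1.79 CPM in myeloma and 2.26, 0.515 and 0.0726 CPM in control. The groups overlapped (log2 fold change 0.22, SE 1.02; adjusted p of 0.916 in edgeR), and the direction was lower without replicate 5 of myeloma (-0.32) or of control (-0.34) or without control replicate 3 (-0.072).

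The effective number of segments (the inverse of the summed squared shares, which is 1 where a single segment holds all counts) was 2.02, 1.24 and 1.18 in myeloma. It was 8.996, 11.1 and 18.5 in control, so the groups did not overlap. The number of segments with any count depends on depth and was 10, 22 and 23 in myeloma and 20, 58 and 66 in controls. At a common depth of 119 variable counts, the total of control replicate 1, the number expected was 6.06, 7.13 and 5.86 in myeloma and 20, 41.1 and 43.7 in controls. Without Igkv1-110, a setting added after the data were seen, the effective number was 1.43, 5.13 and 3.66 in myeloma and 7.997, 10.54 and 18.0 in controls. With Igkv1-117 and Igkv1-88 also left out, likewise added later, it was 4.31, 4.10 and 8.84 in myeloma and 7.50, 9.77 and 17.2 in controls, and the groups overlapped. These sums and shares over genes chosen with earlier results in view are descriptions and carry no p-value.

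**Figure D3:**
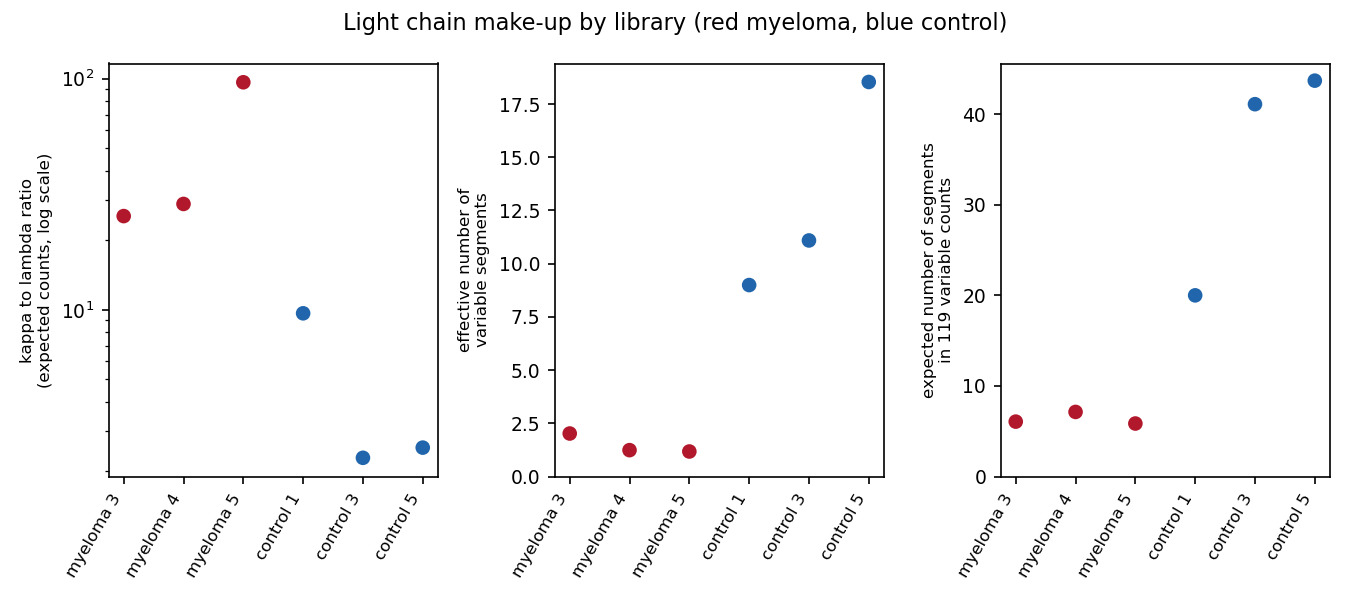
Kappa to lambda ratio of expected counts (log scale), effective number of variable segments, and number of segments expected at a common depth of 119 counts, for each library (red myeloma, blue control). The myeloma libraries lie above every control in the left panel and below every control in the other panels.

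Of the 163 variable segments, 84 had a count in any library: 50 in control libraries only, 5 in myeloma libraries only and 29 in both. The 5 seen only in myeloma were Igkv1-88, Igkv3-1, Igkv12-89, Igkv2-107 and Igkv3-6, named after their values were seen. Igkv3-1 had 10 and 32 counts in myeloma replicates 4 and 5, and Igkv12-89, Igkv2-107 and Igkv3-6 had 1 count each. In all 6 libraries 5 segments had counts: Igkv1-110, Igkv1-117, Igkv1-135, Igkv3-2 and Iglv1. In all 3 controls but no myeloma library there were 6, and the largest of these, Igkv6-17, had 7, 6.1 and 9 counts there. Counts this low are near the limit of detection at these depths.

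The share of 1 segment, Igkv1-110, was higher in every myeloma library than in every control, and the share of 13 segments was lower. Shares add up to 100%, so a segment that fills most of a library lowers the share of the others by construction. On the CPM scale, all variable segments other than Igkv1-110 summed to 19.7, 23.3 and 33.7 CPM in myeloma and to 8.27, 27.5 and 32.7 CPM in controls, and the groups overlapped. With Igkv1-117 and Igkv1-88 also left out the sums were 3.301, 17.3 and 16.3 CPM in myeloma and 7.96, 26.1 and 31.7 CPM in controls, again overlapping.

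Of the 160 kappa variable genes, GENCODE classes 100 as genes and 60 as pseudogenes. Counts were found for 78 of the 100 genes and for 3 of the 60 pseudogenes, Igkv2-107, Igkv2-116 and Igkv3-6, with at most 5 counts each in a library. The segments span chr6:67555497-70704177, and Igkv1-110 starts 2455950 bases from Igkc. Segments with counts in controls were spread along the whole locus, on both sides of Igkv1-110.

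**Figure D4:**
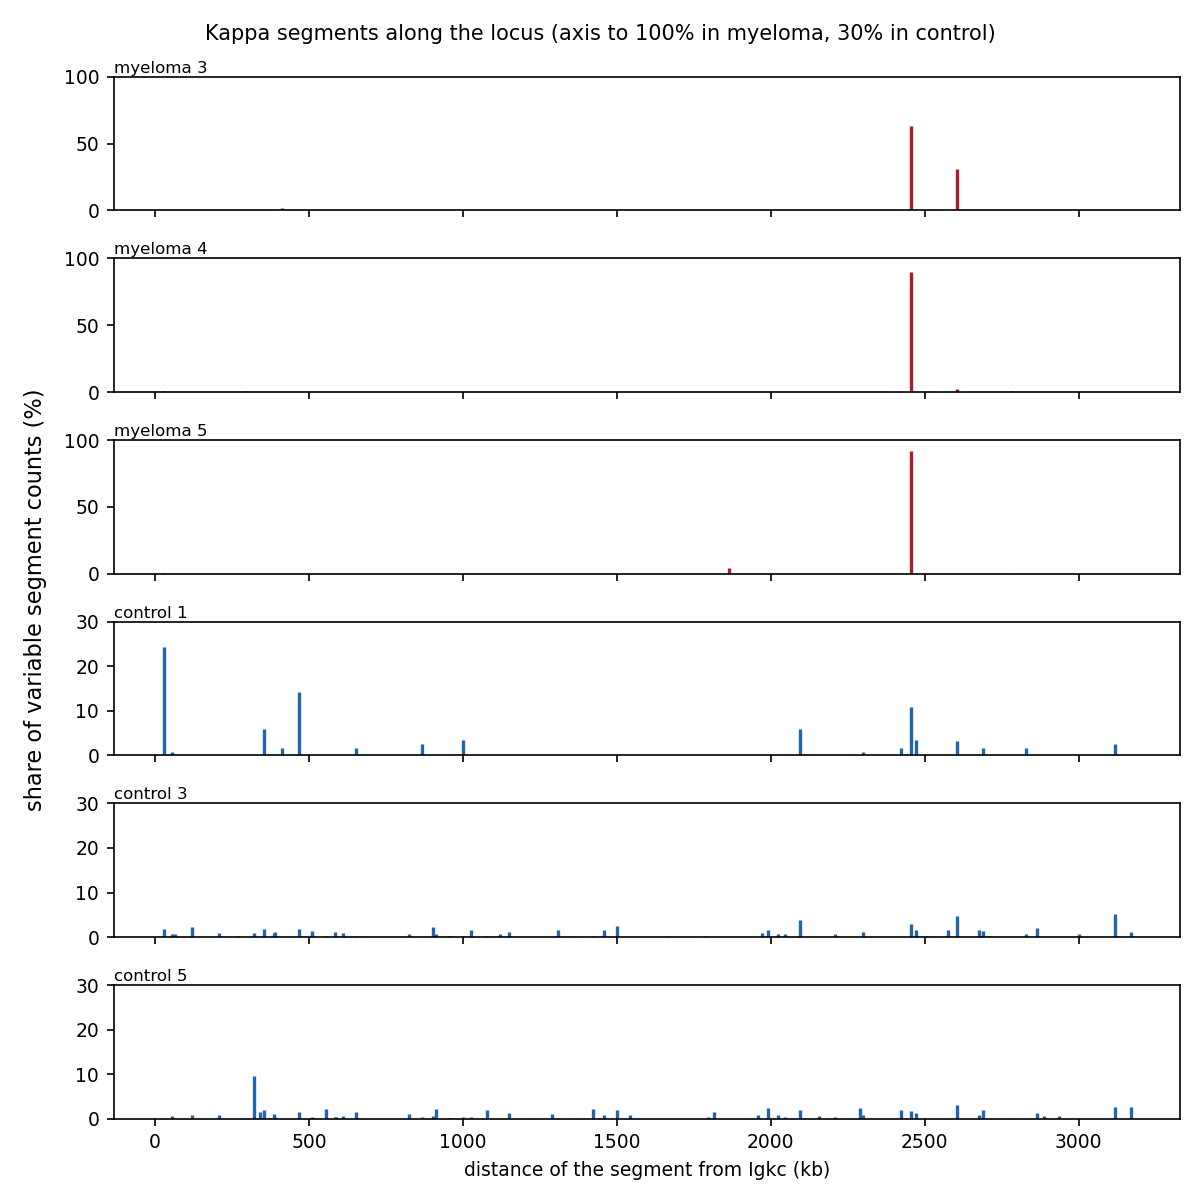
Share of variable segment counts (%) of each kappa segment against its distance from Igkc in kilobases, 1 panel a library; the vertical axis reaches 100% in the myeloma panels and 30% in the control panels. Myeloma panels show 1 or 2 tall lines where controls show many short ones along the locus.

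At the filter used, edgeR's test called no lambda gene in either direction. With no filter on low counts it called Iglc1 (adjusted p = 0.0115) and Iglc2 (0.0139) lower. Iglc1, Iglc2 and Iglc3 encode the constant parts of the lambda chains, and Iglc4 was at 0 in all 6 libraries. Iglc1 was at 0.677, 0.794 and 2.41 CPM in myeloma against 1.17, 5.50 and 7.04 CPM in control (log2 fold change -1.81, SE 0.73; adjusted p of 0.141 in edgeR). Iglc2 was at 1.02, 3.08 and 4.73 CPM against 0.780, 8.59 and 12.6 CPM (log2 fold change -1.32, adjusted p = 0.342). Control replicate 1 was low for both genes. It lay among the myeloma libraries for Iglc1 and below every myeloma library for Iglc2.

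Iglc3 was at 3.13, 9.23 and 2.68 CPM in myeloma against 0.702, 6.44 and 5.88 CPM in control (log2 fold change 0.20, SE 0.74; adjusted p of 0.891 in edgeR). Its direction was lower when myeloma replicate 4 (-0.58) or control replicate 1 (-0.31) was left out. The variable segment Iglv1 was at 1.02, 8.04 and 3.57 CPM and at 0.468, 7.73 and 5.88 CPM (log2 fold change -0.16, SE 0.89; adjusted p of 0.929 in edgeR). Its direction was higher when replicate 3 of either group (myeloma 0.30, control 0.39) or control replicate 5 (0.03) was left out, and with limma-voom (0.080). Iglv2 and Iglv3, the remaining lambda segments, were not tested. Iglv2 had 0, 0 and 3 counts in myeloma and 4, 12.3 and 16.2 in controls, and Iglv3 had 0, 6 and 2 against 6, 8 and 21.

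The ratio of kappa to lambda expected counts was 25.4, 28.7 and 96.5 in myeloma against 9.66, 2.29 and 2.53 in control. Kappa made up 96.2% (95.2% to 97.0%), 96.6% (96.2% to 97.0%) and 99.0% (98.8% to 99.1%) of light chain counts in myeloma. In controls it made up 90.6% (87.8% to 92.8%), 69.6% (66.9% to 72.2%) and 71.7% (69.5% to 73.8%). The groups did not overlap, and control replicate 1 lay between its own group and myeloma. On the log2 scale the mean was 5.37 ± 1.06 (SD, n = 3) in myeloma and 1.94 ± 1.16 in controls, a difference of 3.43. An exact permutation test of 3 against 3 libraries cannot give a two-sided p under 0.1, so none is given.

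Summed kappa genes were at 149, 624 and 1336 CPM in myeloma and 37.7, 68.6 and 86.5 CPM in controls. Summed lambda genes were at 5.84, 21.7 and 13.8 CPM in myeloma and 3.90, 29.98 and 34.1 CPM in controls, where the groups overlapped. Per length, Igkc was at 388, 1618 and 3475 TPM in myeloma against 24.5, 62.3 and 40.1 TPM for the lambda constant genes together, and at 138, 218 and 298 TPM against 15.6, 102 and 132 TPM in controls. The count of Igkv segments per Igkc count was 0.549, 0.529 and 0.454 in myeloma and 0.271, 0.380 and 0.401 in controls, without overlap.

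Summed plasma cell markers were higher in every myeloma library than in every control. Of 15 plasma cell markers 14 were tested, and 3 rose and none fell, against 6.33% higher and 4.69% lower among all genes tested. The median log2 fold change of the 14 was 0.74 against 0.02 for all genes tested. Jchain, the joining chain of secreted antibody, was at 37.7, 118 and 199 CPM in myeloma and 3.67, 0.601 and 3.70 CPM in controls. Its log2 fold change was 5.44 (adjusted p = 0.00239 by edgeR). The surface proteoglycan gene Sdc1 was at 1.10, 9.23 and 25.2 CPM in myeloma and 1.25, 0.601 and 1.45 CPM in controls (log2 fold change 3.402, adjusted p = 0.0456 by edgeR), so its rise rests on myeloma replicates 4 and 5, and replicate 3 lay among the controls. Fkbp11, which encodes a protein of the secretory pathway, also rose (2.94, adjusted p = 0.0155), at 1.44 to 2.77 CPM in myeloma and 0.234 to 0.344 CPM in controls. Prdm1, a plasma cell and T cell factor, was at a log2 fold change of 0.74 (adjusted p = 0.0568). Tnfrsf17, the plasma cell receptor BCMA, was not tested and was at 0.423 to 0.714 CPM in myeloma and at 0 in controls. Summed over the 15 markers the level was 608 to 967 CPM in myeloma and 457 to 516 CPM in controls. For 11 markers that leave out Irf4, Prdm1, Xbp1 and Slamf7, which T cells also express, it was 356, 510 and 669 CPM against 296 to 312 CPM. The number of these markers called higher was between 1 and 5 whichever library was left out: it was 5 where myeloma replicate 3 was dropped, 2 where either myeloma replicate 5 or else control replicate 1 was, and 1 in each of the other 3 fits. With no filter on low counts 11 were called, and with DESeq2 5. Jchain passed in all 6 of those fits and lost its call with limma-voom (0.0797), Sdc1 passed in 1 and Fkbp11 in 2. The part of plasma cell RNA in the light chain result was not tested. In bulk RNA, more cells of a type and more RNA per cell cannot be told apart.

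The B cell genes that passed the test were all lower in myeloma. The 15 markers had a median log2 fold change of -2.36 against 0.02 for all genes. None of the 15 rose, against 6.33% of all genes tested, and 6 fell, against 4.69%. Those with the smallest p were the complement receptor gene Cr2 (log2 fold change -4.47), the IgM receptor gene Fcmr (-2.59), the B cell factor gene Pax5 (-3.04) and the IgE receptor gene Fcer2a (-3.86). The 13 markers without Cd37 and Cd72, which other cells also express, summed to 40.0, 57.3 and 99.3 CPM in myeloma and to 64.0, 321 and 400 CPM in control. Control replicate 1 was low, as it was for the lambda genes. Over all 15 the sums were 336 to 441 CPM and 381 to 673 CPM. None of the 15 was at 0 in every library. The number called lower was 13 without control replicate 1 and 8 without myeloma replicate 5, and it was 1, Cr2, in each of the other 4 fits that left out a library and with limma-voom. It was also 2 with robust dispersion and 13 with no filter on low counts. The part of B cell RNA in the lambda values and in the segment number was not tested.

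**Figure D5:**
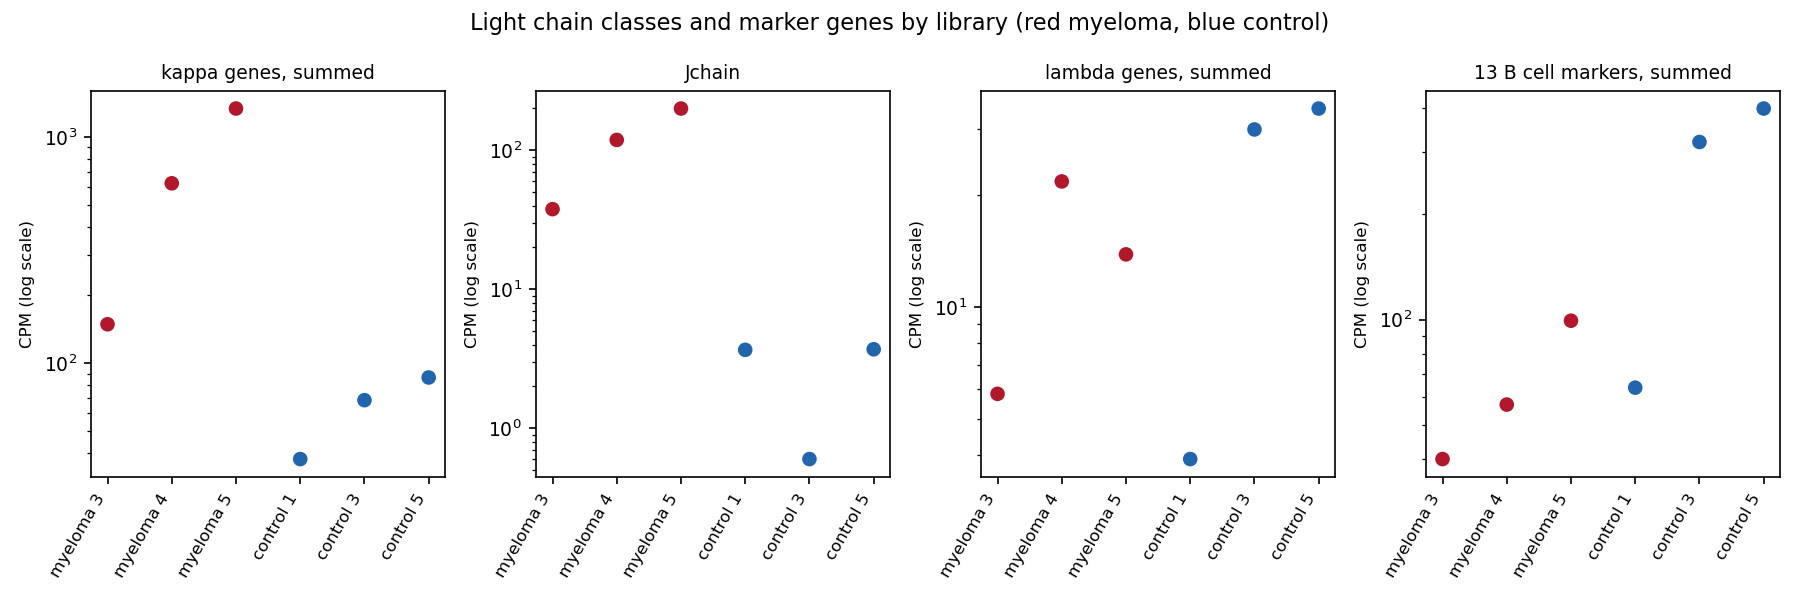
Summed kappa genes, Jchain, summed lambda genes and the sum of 13 B cell markers in CPM (log scale) in each library (red myeloma, blue control). Kappa and Jchain are highest in the 3 myeloma libraries, and control replicate 1 is below the other controls for lambda genes and B cell markers.

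Heavy chain constant genes have products that pair with light chains. Of 4 tested members 2 were higher in the main test, against 6.33% of all genes tested, and none was lower, against 4.69%. Their median log2 fold change was 1.80 against 0.02 for all genes tested. Ighg2b was at 62.8, 718 and 1632 CPM in myeloma and at 0.258 to 6.87 CPM in controls (log2 fold change 8.25, adjusted p = 0.00708 by edgeR), and the myeloma libraries ranked as they did for Igkv1-110. Igha also rose, with the myeloma libraries ranked the opposite way, at 102, 81.5 and 37.6 CPM in myeloma and 0.0859 to 16.8 CPM in controls (log2 fold change 3.49, adjusted p = 0.0335). Ighd (-1.20, adjusted p = 0.0586) and Ighm (0.12, adjusted p = 0.476) did not pass in edgeR's main test. However, 1 heavy chain constant gene was called lower with DESeq2, with no scaling factors, with no filter and without control replicate 1. Ighg2c, which was not tested, had 804, 214 and 1 counts in myeloma and 0 in controls. Igkv1-117 had 194, 58.2 and 7.01 counts in myeloma, and Igha ranked those libraries in the same order. Whether any heavy chain gene and light chain segment came from the same cells was not tested. Ighg2b and Ighg2c are close paralogs, and reads may be divided between them. Ighg2b passed whichever library was left out and lost its call with limma-voom and robust dispersion, and Igha passed in 2 of the 6 fits that left out a library and lost it with DESeq2, limma-voom and robust dispersion.

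The 16 factors of light chain promoters and enhancers had a median log2 fold change of -0.33 against 0.02 for all genes tested. None of the 16 rose, against 6.33% of all genes tested, and 3 fell, against 4.69%. They were Pax5, the lymphoid factor gene Ikzf1 (log2 fold change -0.48, adjusted p = 0.0285) and the octamer-binding factor gene Pou2f1 (-0.33, adjusted p = 0.0444), and the B cell factor gene Ebf1 was at -2.19 (adjusted p = 0.0696). Ikzf1 and Pou2f1 are also expressed in T cells, and among the 6 fits that left out a library Ikzf1 and Pax5 passed in 2 each and Pou2f1 in 1. The coactivator gene Pou2af1, named after its value was seen, was at 5.59, 10.52 and 29.8 CPM in myeloma and 3.98, 22.7 and 31.3 CPM in controls (log2 fold change -0.34, adjusted p = 0.803).

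Of 12 recombination and mutation genes 11 were tested and none was called by edgeR, while DESeq2 called 1 lower, edgeR without control replicate 1 called 1 and edgeR with no filter 2. The smallest p-values were those of the repair kinase gene Prkdc (log2 fold change -0.39, adjusted p = 0.0841), the recombinase gene Rag1 (-2.56, adjusted p = 0.0974), the ligase gene Lig4 (-0.33) and Rag2 (-1.80). Unadjusted p values under 0.05 were those of Prkdc (0.0138) and Rag1 (0.0177). Of the 4 surrogate light chain genes, which serve B cell precursors before a light chain is made, only Vpreb3 was tested (-1.37, adjusted p = 0.311). Their summed level was 1.95, 2.38 and 6.16 CPM in myeloma and 1.72, 12.9 and 6.39 CPM in controls. Of 10 B cell precursor markers 6 were tested and none was called by edgeR, DESeq2 or limma-voom. Rag1 alone had an unadjusted p under 0.05, and edgeR called 3 lower with no filter and 1 in each of the fits that left out myeloma replicate 5 or control replicate 1. The 10 markers had sums of 5.25, 11.1 and 36.9 CPM and of 12.4, 54.5 and 50.1 CPM.

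Of 16 genes for antibody folding and secretion, which all secreting cells use, 5 rose, against 6.33% of all genes tested. The number that fell was 1, against 4.69%, and the median log2 fold change was 0.22 against 0.02. Sec61b, a subunit of the translocation channel, rose 1.66-fold (adjusted p = 0.00252 by edgeR), Ssr4, of the translocon, 1.42-fold and the chaperone cofactor Sdf2l1 2.22-fold. Sec61b passed in all 6 fits that left out a library, Ssr4 in 5 (not without control replicate 3) and Sdf2l1 in 4 (not without myeloma replicate 4 or control replicate 3). The other members that rose, Pdia6 and Dnajb11, passed in 2 and 0 of them, and Dnajb11 also lost its call under 6 of the other 9 settings. The member that fell was the co-chaperone gene Dnajb9 (log2 fold change -1.65, adjusted p = 0.00568). Of 10 regulatory T cell genes 3 rose, against 6.33% of all genes tested, and none fell, against 4.69% (median 0.05 against 0.02). Those that rose were Tnfrsf4 (log2 fold change 0.98), Tnfrsf18 (0.69) and the T cell receptor subunit gene Cd3g (0.37). Cd3g passed in 1 of the 6 fits that left out a library, and Tnfrsf4 and Tnfrsf18 in all 6. Cd3d was at 0.34 (adjusted p = 0.052 by edgeR). Their summed level was 6012 to 6224 CPM in myeloma and 4958 to 6558 CPM in controls, above the summed light chain genes, which were at 154, 646 and 1350 CPM and at 41.6, 98.6 and 121 CPM.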

How the data were processed

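RNA of sorted bone marrow regulatory T cells was sequenced in 3 myeloma and 3 control libraries, prepared with a kit that does not mark strand, per the labels' protocols. The submitters' processing notes name STAR, RSEM, Picard, DESeq2 and mm10, while their versions and settings were not given. Each deposited table holds the authors' RSEM expected counts, estimates that are not normalized and need not be whole, per the file headers. The authors' TPM and FPKM in the deposited tables are scaled for library size and length, per the file headers. Here TPM served in shares and ratios, and FPKM in none.

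Gene names in the tables are in capitals, and the member rule was applied without regard to letter case; 47224 of 47643 identifiers matched the reference names, and all 168 members did so under either name. Joining segments are at 0 in every table. Expected counts were summed as deposited for ratios and shares and rounded for tests, gene CPM and intervals. CPM uses TMM-scaled library sizes. Genes were kept by filterByExpr (minimum count 10, minimum total 15) and tested with edgeR 4.0.16 (glmQLFit, glmQLFTest, group only) at an adjusted p of 0.05, in R 4.3.3. The SE is the log2 fold change divided by the square root of F. A count of 0 was given a limit of 3 counts, and intervals and limits cover counting error only. The alternatives were RLE, upper-quartile and no scaling factors, no filter, 1 CPM in 3 samples, DESeq2 1.42.0, limma-voom (limma 3.58.1), robust dispersion, removal of 275 haemoglobin, mitochondrial and other immunoglobulin genes, a block for the replicate number, leaving out each library, and, for ratios and shares, TPM, single gene classes and subgroup sums. The edgeR test was tested on simulated data. Sequences were aligned with Biopython 1.88.

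Named members are Igkc, lambda genes with at least 10 counts in a library, the 3 leading segments of each library and, per direction, called members by smallest p and largest fold change; from each list, up to 4 genes with the smallest p. Other named genes, such as Foxp3, Tnfrsf17, Ighg2c, Pdia6, Dnajb11, Igkv6-17, Igkv9-124, Igkv1-122 and Igkv2-116, lie outside this rule and were chosen after their values were seen. The members and lists were chosen with earlier results of these data known.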

Additional observations from a re-analysis of the deposited data

How the results depend on the processing

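The number of light chain genes called higher was 2, and it was 1 with limma-voom, robust dispersion or the replicate block, and 6 with no filter on low counts. It lay between 1 and 4 whichever library was left out. The number called lower was 0, 2 with no filter, and 0 to 0 whichever library was left out. The fit with no filter called Igkc, Igkv1-110, Igkv1-117, Igkv1-88, Igkv3-1 and Igkv9-124 higher and Iglc1 and Iglc2 lower, and some of these rest on 1 or 2 libraries and overlap between the groups, so these calls are not taken as evidence. The replicate numbers 3 and 5 occur in both groups. Deviations from the group means gave r = 0.0295 and 0.0974 for same-numbered libraries, against -0.0812 to 0.0483 for differently numbered ones. These values do not settle whether the numbers mark pairs, and the main test did not take them as pairs. In the block fit, myeloma replicate 4 and control replicate 1 share a number with no other library and add nothing to the group difference. Changes under the block thus mix pairing with the loss of those libraries. With the replicate block Igkc was at a log2 fold change of 2.45 (adjusted p = 0.111), Igkv1-110 at 8.04 (adjusted p = 0.00360) and Iglc3, reversed, at -1.08. Of the 22 genes called in the marker and pathway lists, 12 were also called with the replicate block and 10 were not (adjusted p from 0.0555 to 0.206): Sdc1, Fkbp11, Cr2, Cd3g, Igha, Pou2f1, Pdia6, Dnajb11, Sdf2l1 and Ssr4. Over all genes the block gave 362 higher and 142 lower, against 838 and 621. Genes that were not called also turned sign elsewhere, and the cause was not tested: Iglc3 without myeloma replicate 4 (-0.58) or control replicate 1 (-0.31), Iglv1 with limma-voom (0.080) or without replicate 3 of myeloma (0.30) or of control (0.39) or without control replicate 5 (0.03), and Igkv3-2 without replicate 5 of myeloma (-0.32) or of control (-0.34) or without control replicate 3 (-0.072). Over the 6 fits that left out a library, Iglc3 ranged from -0.58 to 0.59, Iglv1 from -1.03 to 0.39 and Igkv3-2 from -0.34 to 1.90. The log2 kappa to lambda difference of 3.43 ranged from 2.82 to 4.10 and the difference in leading share from 53.3 to 67.7 percentage points whichever library was left out. The difference in effective number, -11.4, ranged from -13.3 to -8.56, and was -20.7 among kappa segments only, where Iglv1 no longer leads in controls. It was -7.03 with subgroup sums and, after the data were seen, -5.74 without Igkv1-110, Igkv1-117 and Igkv1-88. Subgroup sums gave a leading share difference of 71.0 points, against 58.5. TPM and the single gene classes otherwise moved these differences by less than the larger of the 2 groups' SDs. Depth limits the segment counts most in control replicate 1, where 0 of 119 counts allows a share of up to 2.52% (3 counts of the total).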
